A study of Mus musculus with 6 samples.

Results

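The 7 genes described here were Stat2, Stat3, Stat4, Stat5a, Stat5b, Stat6, and Irf9, out of 54232 genes in the deposited expression tables. They were taken by name as genes of the signal transducer and activator of transcription (STAT) family together with Irf9. The rule used names and no measured value, but earlier results of these data were known when the genes were chosen. All 7 passed the filter on low counts and were tested. They were measured by RNA-seq in monocytes sorted from the central nervous system (CNS) of mice with experimental autoimmune encephalomyelitis (EAE), a model of multiple sclerosis.

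STAT proteins wait in the cytoplasm as latent transcription factors. When a cytokine binds its receptor, the Janus kinases (JAK) bound to the receptor phosphorylate STAT proteins, which then pair, enter the nucleus, and bind DNA. Type I IFNs such as IFN-β signal through a receptor made of IFNAR1 and IFNAR2, with the kinases TYK2 and JAK1. Their main transcription complex, ISGF3, contains STAT2 and the DNA-binding adaptor IRF9, and it binds the IFN-stimulated response element (ISRE) in front of antiviral genes. STAT3 serves IL-6 and IL-10 family cytokines, STAT4 serves IL-12, STAT5A and STAT5B serve GM-CSF, IL-3, IL-2, and IL-7, and STAT6 serves IL-4 and IL-13. Monocytes of the inflamed CNS can receive several of these signals at the same time.

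All recipients were lethally irradiated GFP+ mice that carried bone marrow of WT donors (CD45.1) mixed 1:1 with bone marrow of Ifnar1-/- donors (CD45.2), that were immunized 6 to 7 weeks after transfer, and that received 30000 IU of rIFN-β daily. WT and Ifnar1-/- monocytes, sorted as GFP-CD45+CD11b+Ly6ChiLy6G- cells at disease peak, therefore developed in hosts of the same kind. There were 3 WT and 3 Ifnar1-/- libraries, and no library came from untreated or PBS-treated mice, so the comparison was between monocytes with and without the receptor under treatment. Genotype and the CD45 allele of the donor strain go together in this design and cannot be told apart. The ages of the mice were not given in the sources used here.

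Libraries held from 4531782 to 7321380 expected counts, the read numbers per gene that RSEM estimated, and 3 counts, taken as the detection floor, corresponded to 0.410 to 0.662 CPM (counts scaled to library size). The share of mitochondrial ribosomal RNA lay between 12.3% and 17.6% in the WT group and between 15.1% and 22.7% in the Ifnar1-/- group. The monocyte markers Ccr2, Ly6c2, Itgam, Csf1r, Lyz2, Cd14, and Fcgr1 summed to between 7801 and 9587 normalized CPM in the 6 libraries. They did not move as 1 group. Ly6c2, a gene of the Ly6C antigen used in the sort, was higher in WT (717.9 ± 74.64 against 271.4 ± 83.94 normalized CPM, SD, n = 3 each, log2 fold change 1.40, SE 0.23, edgeR adjusted p = 0.00957). Ccr2 lay lower in every WT library without passing the test (log2 fold change -0.62, SE 0.20, edgeR adjusted p = 0.143). Fcgr1 lay higher in every WT library, also without passing (log2 fold change 0.71, SE 0.18, edgeR adjusted p = 0.0839). DESeq2 called Ly6c2 and Fcgr1 higher and Ccr2 lower in WT. The neutrophil markers Ly6g, S100a8, S100a9, Cxcr2, Retnlg, Camp, and Ngp summed to 171.6, 537.0, and 1728 normalized CPM in WT replicates 1 to 3. In Ifnar1-/- replicates 1 to 3 the sums were 757.9, 567.8, and 2037, so the groups overlapped. Of these 7 markers 6 were tested and 0 were called by edgeR or DESeq2, and Ly6g reached at most 0.7897 normalized CPM. The part of neutrophils in the libraries was not tested. Ifnar1 itself was counted at 152.7, 125.8, and 111.3 normalized CPM in the WT group and at 109.9, 101.5, and 109.4 in the Ifnar1-/- group (log2 fold change 0.28, SE 0.15, edgeR adjusted p = 0.36). A count over the whole gene cannot show the loss of a part of it, so Ifnar1 does not check the genotype labels, and groups are named here as labelled. None of the 7 genes lies on chromosome 16, which carries Ifnar1.

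The DNA in front of Stat2 is shown first, because Stat2 was the gene of the family that differed between the groups. RefSeq promoter windows (GRCm38.p6, from 250 bases before to 50 bases after each annotated start) were given for all 7 genes, with 11 windows in all. They were searched on both strands for ISRE-like letters, which are GAAA, any 2 bases, and GAAA, and for GAS-like letters of the palindromic site that paired STAT proteins bind, which are TTC, any 3 bases, and GAA. The 250 bases before the starts of the windows with an ISRE-like match follow, 5′ to 3′ on the plus strand, with the match in capitals.
Stat2, chr10:128270248-128270497: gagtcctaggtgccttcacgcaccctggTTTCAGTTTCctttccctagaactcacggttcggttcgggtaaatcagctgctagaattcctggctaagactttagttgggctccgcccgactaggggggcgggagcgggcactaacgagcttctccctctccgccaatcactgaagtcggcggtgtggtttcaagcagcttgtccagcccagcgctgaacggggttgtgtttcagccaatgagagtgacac
Stat4, chr1:52007990-52008239: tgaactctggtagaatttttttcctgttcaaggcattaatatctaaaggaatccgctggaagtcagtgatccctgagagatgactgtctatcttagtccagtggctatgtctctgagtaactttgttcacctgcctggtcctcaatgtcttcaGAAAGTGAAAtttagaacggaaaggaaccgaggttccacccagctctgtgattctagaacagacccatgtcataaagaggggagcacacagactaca

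In Stat2 the match TTTCAGTTTC began 222 bases before the start, at positions 128270276 to 128270285 of chromosome 10, and reads as the motif on the other strand. In Stat4 it was present in front of the downstream one of 2 annotated starts, where GAAAGTGAAA began 97 bases before the start, between exons of the longer Stat4 transcript. The same letters occurred in 1131 of 32851 mouse windows (3.44%). Irf9 had no ISRE-like match in either of its 2 windows, nor did Stat3, Stat5a, Stat5b, or Stat6. All windows of Irf9 and Stat5a lay inside the annotated genes, so bases before these 2 genes were not searched. None of the 11 windows held the GAS-like letters, which occurred in 8.30% of all windows. The form with a 4-base spacer, TTC, any 4 bases, and GAA (6.95% of all windows, and not overlapping the GAS-like letters), was found in Stat2 as TTCCCTAGAA, 210 bases before the start, and in Irf9 as TTCCTGGGAA, 1 base after the start. These matches describe letters only, and binding was not measured.

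Of the 7 genes, 1 was called differentially expressed between WT and Ifnar1-/- monocytes, which required 1.5-fold or more and an adjusted p no higher than 0.05 in the quasi-likelihood test of edgeR. This gene was Stat2, which was 4.10-fold higher in WT monocytes. Across the 11254 genes tested the same rule called 2.13%, with 188 genes higher and 52 lower in WT (159 and 16 when the counts were corrected for effective transcript length). In 4 of the 7 genes (Stat2, Irf9, Stat5a, and Stat5b) every WT library lay above every Ifnar1-/- library, against 11.1% of all genes tested. In 0 of 7 was every WT library below, against 12.2% of all genes tested. The log2 fold change was positive in 7 of 7 genes, against 48.2% of all genes tested, with a median of 0.37 for the 7 genes and -0.01 over all genes. This common sign was not kept under every scaling. When counts were corrected for GC content and gene length, Stat3, Stat5a, Stat5b, and Stat6 stood at 0.01, 0.07, 0.06, and -0.03, while Stat2 stood at 1.94 and Irf9 at 0.41.

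**Figure D1:**
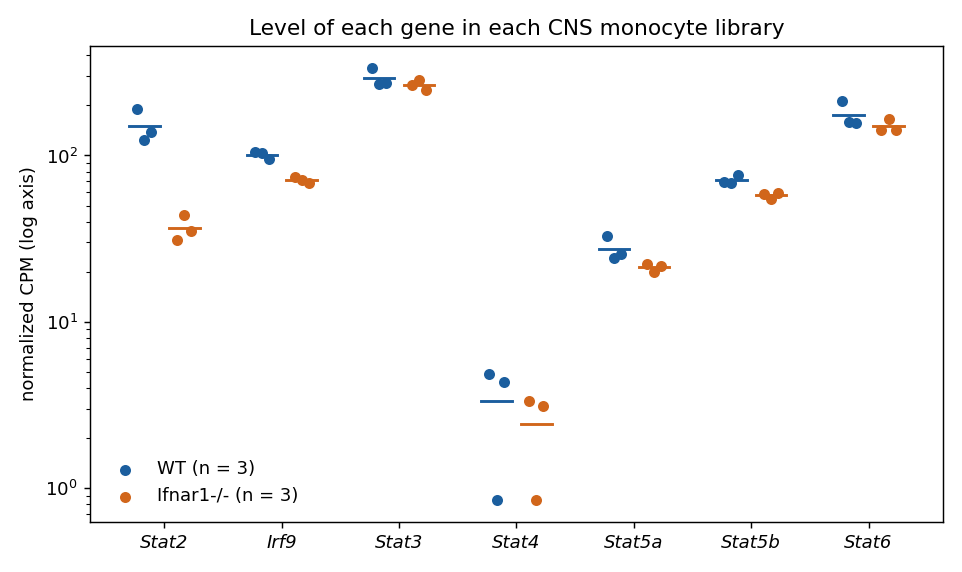
Normalized CPM (log axis) of the 7 genes in 3 WT (blue) and 3 Ifnar1-/- (orange) libraries, with 1 point per library and a line at the group mean. The WT points of Stat2 (123.1 to 189.4) stand far above the Ifnar1-/- points (30.85 to 44.06), those of Irf9 are separated by a smaller step, and those of Stat3, Stat4, and Stat6 overlap.

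Stat2 encodes the STAT protein that is used mainly by type I and type III IFN receptors (ENSMUSG00000040033, chr10:128270559-128292849, plus strand, GRCm38). It was measured at 189.4, 123.1, and 139.0 normalized CPM in WT replicates 1 to 3 and at 30.85, 44.06, and 35.31 in Ifnar1-/- replicates 1 to 3. The lowest WT library was still well above the highest Ifnar1-/- library, and the means were 150.5 ± 34.63 and 36.74 ± 6.72 normalized CPM (SD, n = 3 each). The log2 fold change was 2.04 (SE 0.20, 95% confidence interval 1.59 to 2.49, edgeR adjusted p = 0.000347). With each library left out in turn it stayed between 1.84 and 2.20 on the log2 scale, and Stat2 remained the called gene each time. Stat2 transcripts were thus still counted in every Ifnar1-/- library, at more than 30 normalized CPM. In sorted bulk samples, fewer cells with a transcript and less RNA per cell cannot be told apart.

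Irf9 encodes the adaptor that gives ISGF3 its DNA contact (ENSMUSG00000002325, chr14:55603571-55610030, plus strand). Its normalized CPM were 105.2, 102.9, and 94.76 in WT and 74.22, 71.0, and 68.59 in Ifnar1-/- libraries, so the groups did not overlap. The means were 100.9 ± 5.46 and 71.27 ± 2.82 normalized CPM (SD, n = 3 each). The fold change was 1.42 (log2 0.50, SE 0.13, 95% confidence interval 0.22 to 0.79), with an unadjusted p of 0.00282 and an adjusted p of 0.0842 in edgeR. Irf9 therefore missed both the adjusted p threshold and the 1.5-fold threshold. DESeq2 gave an adjusted p of 0.0322 at a log2 fold change of 0.52, which was again below 1.5-fold, and DESeq2 called 3.83% of the genes it tested.

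**Figure D2:**
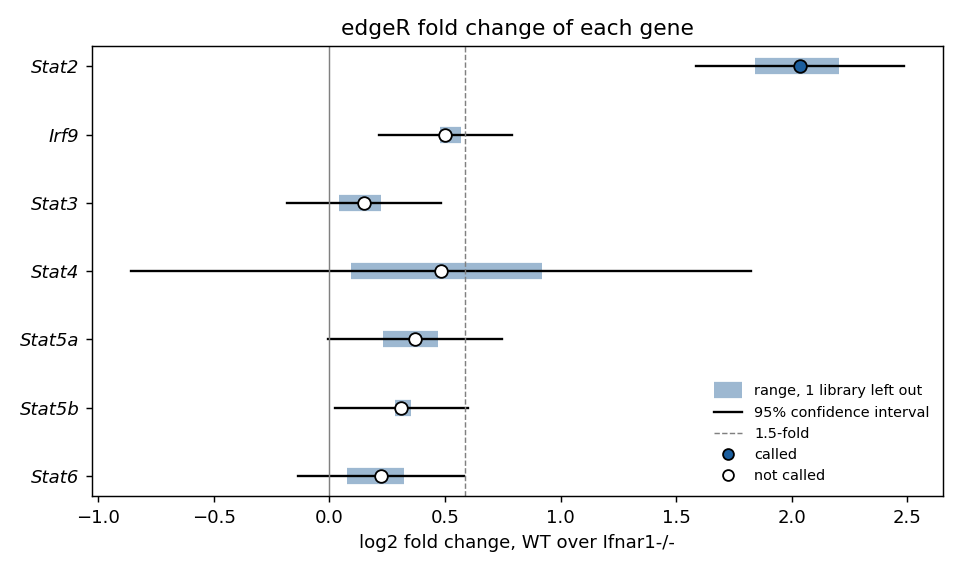
Log2 fold change of WT over Ifnar1-/- monocytes for each gene in edgeR (points, filled where called), with its 95% confidence interval (black line) and the range over fits that each leave out 1 library (pale bar). The interval of Stat2, 1.59 to 2.49, lies wholly beyond the dashed 1.5-fold line, and that of Irf9, 0.22 to 0.79, crosses the line.

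Irf9 and Stat2, whose products act together in ISGF3, were next compared with each other within each library. The ratio of their TPM (a level per transcript length, scaled to a fixed total) within a library was 0.409, 0.632, and 0.467 in WT and 1.405, 1.249, and 1.197 in Ifnar1-/- monocytes. WT monocytes held more Stat2 than Irf9 transcripts in 3 of 3 libraries, and Ifnar1-/- monocytes held more Irf9 than Stat2 transcripts in 3 of 3. The difference of WT minus Ifnar1-/- was -1.37 on the log2 scale (two-sided exact permutation p = 0.1, the smallest p that 3 against 3 libraries can give). Ratios of the other well-detected STAT genes to Stat2 were also lower in all WT libraries, by -1.60 for Stat3, -1.61 for Stat6, -1.49 for Stat5b, and -1.26 for Stat5a on the log2 scale of TPM ratios. These 5 ratios share Stat2 as their denominator, and each had an exact permutation p of 0.1 before and after adjustment over the 5.

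**Figure D3:**
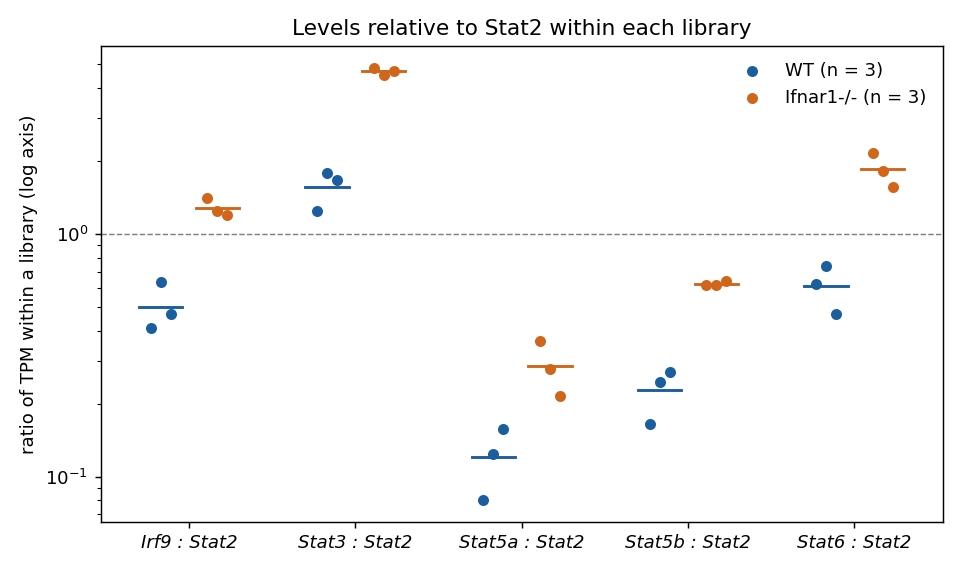
TPM of Irf9, Stat3, Stat5a, Stat5b, and Stat6 divided by the TPM of Stat2 in the same library (log axis), with 1 point per library and a line at the mean ratio of the group. Irf9 lies below the dashed line of equal levels in the WT libraries (0.409 to 0.632) and above it in the Ifnar1-/- libraries (1.197 to 1.405).

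In WT monocytes the order of TPM levels was Stat3 (136.0 ± 31.15, SD, n = 3), Stat2 (86.74 ± 10.57), Stat6 (51.92 ± 5.778), Irf9 (43.22 ± 8.194), Stat5b (19.92 ± 6.565), Stat5a (10.66 ± 4.527), and Stat4 (1.13 ± 0.739). The ranges of Stat6 and Irf9 overlapped, as did those of Stat5b and Stat5a, although the first of each pair was higher in 3 of 3 libraries. In Ifnar1-/- monocytes Stat2 stood below Stat6 and Irf9, and the order was Stat3 (120.4 ± 9.914), Stat6 (47.21 ± 6.238), Irf9 (32.85 ± 2.748), Stat2 (25.71 ± 3.075), Stat5b (16.06 ± 1.922), Stat5a (7.247 ± 1.465), and Stat4 (1.027 ± 0.4518). No neighbours in this second order had overlapping ranges.

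Stat2 took 32.0%, 25.7%, and 27.8% of the summed TPM of the 6 STAT genes in the WT group and 11.04%, 12.1%, and 12.2% in Ifnar1-/- libraries. The groups did not overlap, and the difference was 16.7 percentage points (28.5 ± 3.21% against 11.8 ± 0.659%, SD, n = 3 each, two-sided exact permutation p = 0.1, adjusted over 6 shares 0.3). Stat3 had the largest share of these 6 genes in both groups, with 44.1 ± 3.74% in WT and 55.3 ± 2.12% in Ifnar1-/- monocytes. The share of Stat3 was lower in every WT library, while the ranges of Stat4, Stat5a, Stat5b, and Stat6 shares overlapped. Shares sum to a whole, so a larger Stat2 share makes the other shares smaller without any change in their levels. The summed TPM itself was 259.6, 305.3, and 354.3 in WT and 205.1, 237.3, and 210.4 in Ifnar1-/- libraries.

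**Figure D4:**
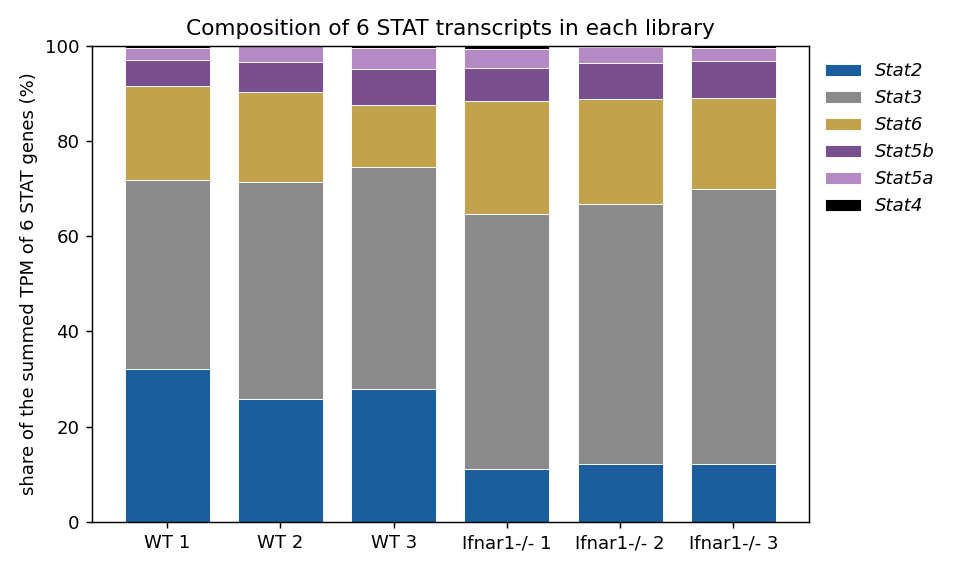
Share (%) of each of 6 STAT genes in their summed TPM, with 1 bar per library. The Stat2 segment (blue, at the base) takes 25.7% to 32.0% of the WT bars and 11.04% to 12.2% of the Ifnar1-/- bars, and Stat3 (gray) is the largest segment in all 6.

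Stat3 and Stat6 were abundant and did not pass the test. Stat3, which transmits IL-6 and IL-10 family signals (chr11:100885098-100939540, minus strand), was measured at 337.9, 268.7, and 273.4 normalized CPM in WT and at 264.2, 282.5, and 247.3 in Ifnar1-/- libraries. The groups overlapped, and the log2 fold change was 0.15 (SE 0.15, 95% confidence interval -0.19 to 0.48, edgeR adjusted p = 0.65). Stat6, the factor of IL-4 and IL-13 (chr10:127642986-127660957, plus strand), was measured at 211.9, 158.3, and 157.2 normalized CPM in WT and at 142.5, 166.1, and 143.1 in Ifnar1-/- libraries. Its groups also overlapped, with a log2 fold change of 0.22 (SE 0.16, 95% confidence interval -0.13 to 0.58, edgeR adjusted p = 0.506). WT library 1 held the highest value of both genes. The upper bound for Stat3 excluded a 1.5-fold difference, whereas the bound for Stat6 lay at that size.

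Stat5a and Stat5b are adjacent genes with near-identical proteins that act below GM-CSF and IL-3 receptors. Stat5a (chr11:100859351-100885169, plus strand) was measured at 32.59, 24.02, and 25.67 normalized CPM in WT and at 22.14, 20.00, and 21.70 in Ifnar1-/- libraries. Stat5b (chr11:100780731-100850724, minus strand) was measured at 69.44, 68.44, and 76.6 normalized CPM in WT and at 58.79, 54.73, and 59.4 in Ifnar1-/- libraries. All WT libraries lay above all Ifnar1-/- libraries for both genes, by small steps that did not pass the test. The log2 fold changes were 0.37 (SE 0.17, edgeR adjusted p = 0.285) for Stat5a and 0.31 (SE 0.13, edgeR adjusted p = 0.243) for Stat5b.

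The split of reads between the Stat5 genes was an estimate. Neither gene had a whole expected count in any of the 6 libraries (tolerance 0.005 counts), whereas their sum was whole in 6 of 6. The sums were 717, 435, and 518 counts in WT and 530, 441, and 441 in Ifnar1-/- libraries. Tested as 1 feature, an analysis chosen after the data were seen, the pair had a log2 fold change of 0.33 (SE 0.13, edgeR adjusted p = 0.225). Stat5b took from 68.0% to 74.9% of the sum in WT and from 72.7% to 73.2% in Ifnar1-/- libraries. Stat2, Stat3, Stat6, and Irf9 had whole counts in 6 of 6 libraries, and Stat4 in 2 of 6.

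Stat4, the IL-12 factor of T and NK cells (chr1:51987148-52107189, plus strand), was near the detection limit. Its expected counts rounded to 34, 4, and 22 in WT and to 22, 5, and 17 in Ifnar1-/- libraries, or 4.838, 0.850, and 4.343 against 3.36, 0.847, and 3.126 normalized CPM. In each group 1 library was low and 2 were high, so the groups overlapped. The log2 fold change was 0.48 (SE 0.61, 95% confidence interval -0.86 to 1.82, edgeR adjusted p = 0.723), an interval that includes differences beyond 1.5-fold in either direction. The library with the lowest Stat4 value in each group also had the lowest level of T cell markers in that group. These 12 markers summed to 58.8, 24.9, and 59.4 normalized CPM in WT and to 27.6, 10.3, and 12.7 in Ifnar1-/- libraries, with a higher mean in WT for 12 of 12. Cd3e, a chain of the T cell receptor complex, was counted in all 6 libraries, at 0.508 to 8.094 normalized CPM. Of these 12 markers 8 were tested and 0 were called by edgeR or DESeq2, with 7 at an unadjusted p under 0.05. The part of T cells in the Stat4 values was not tested.

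The mixture of transcripts behind a gene was read from the mean transcript length that RSEM gives, weighted by the estimated level of each transcript. For Irf9, with 7 annotated transcripts, it was 2386, 2322, and 2309 bases in WT and 2203, 2173, and 2126 bases in Ifnar1-/- libraries. The WT values were all longer, by 171.9 bases on average (two-sided exact permutation p = 0.1, adjusted over 7 genes 0.7). Among 8985 tested genes with a varying length, 6.01% were longer in all WT than in all Ifnar1-/- libraries. For Stat2, with 8 annotated transcripts, the lengths of 1809, 1805, and 1646 bases in WT and 1359, 1726, and 1376 bases in Ifnar1-/- libraries overlapped (exact permutation p = 0.2). Lengths of the other 5 genes overlapped as well. TPM depends on this length, and the TPM of Irf9 (33.98, 49.61, and 46.06 against 31.81, 35.97, and 30.78) overlapped between the groups where its normalized CPM did not.

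Neighbouring genes on the chromosome were compared because reads can be shared where genes overlap. Timeless, a gene of DNA replication whose end lies 17618 bases before the Stat2 gene on the same strand, was higher in WT with a log2 fold change of 1.92 (SE 0.35, edgeR adjusted p = 0.0182). This call was lost without Ifnar1-/- replicate 1 or without Ifnar1-/- replicate 2. Pan2, the neighbour on the other side of Stat2, had a log2 fold change of -0.24 (adjusted p = 0.608). The first 123 bases of Irf9 overlap the end of Rnf31, a gene of linear ubiquitin chain assembly on the same strand, so that reads in this stretch can fit both genes. The expected counts of Irf9 were whole in 6 of 6 libraries. Those of Rnf31 were also whole, at 359, 194, and 202 in WT and 149, 160, and 157 in Ifnar1-/- libraries. Rnf31 had a log2 fold change of 0.75 (SE 0.16, edgeR adjusted p = 0.0424), and its call was lost when any 1 of the 6 libraries was left out (adjusted p up to 0.172). The other neighbours of Irf9, Psme2 and Ipo4, each stood at -0.15. Stat3 and Stat5a overlap by 72 bases, and Stat6 and Nab2 by 40 bases, each on opposite strands. The longest overlap is that of Stat4 with Gm28177, which spans 29929 bases on the same strand (mean count of Gm28177 7.21). Stat4 also overlaps Gm3940 by 432 bases on the opposite strand, and neither of these genes was tested. The part of shared reads in the Stat4 counts was not tested. Apart from Timeless and Rnf31, no tested neighbour of the 7 genes was called.

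The 5 genes whose pattern over the 6 libraries was most like that of Stat2, by Pearson correlation of log2 normalized CPM, were Dhx58 (0.999), Phf11a (0.998), Oasl2 (0.998), Zfp768 (0.997), and Parp14 (0.997), of which Dhx58 and Oasl2 encode a regulator of RNA sensing and an OAS-like protein. All but Zfp768 were called, and Zfp768 had a log2 fold change of 0.68 (SE 0.26, edgeR adjusted p = 0.198). For Irf9 the list was Ifi27l2a (0.995), Gm6545 (0.994), Rsad2 (0.993), Trim30b (0.993), and Oas1g (0.992), and all were called higher in WT. Their log2 fold changes, from 2.02 for Trim30b to 5.54 for Oas1g, exceeded the 0.50 of Irf9, since a correlation reads the shape and not the size of a difference. Stat2 and Irf9 correlated with each other at 0.956. The points share libraries and the same group step, so these values are descriptions over 6 libraries.

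Most of the listed genes that ISGF3 is known to induce were higher in WT monocytes. Of 28 listed STAT2-IRF9 targets, 27 were called higher in WT monocytes and 0 lower, where 1.67% of all genes tested were called higher. Their median log2 fold change was 3.72, and Stat2, at 2.04, lay below this median. Oas1a, a sensor enzyme of double-stranded RNA, had a log2 fold change of 4.70 (SE 0.19, edgeR adjusted p = 2.17e-06). Ifit2, which binds viral RNA, stood at 4.52 (SE 0.21) and the antiviral GTPase Mx1 at 4.47 (SE 0.28). Parp9 was the target that missed the threshold, with a log2 fold change of 0.63 (SE 0.15, edgeR adjusted p = 0.0666). The targets Mx1, Mx2, Parp9, Parp14, Dtx3l, and Rtp4 lie on chromosome 16, which also carries Ifnar1. Whether this position bears on their values was not tested. RefSeq windows were matched for 19 of the 28 targets, and 11 of these (57.9%) held the ISRE-like letters found in Stat2, against 3.99% of all genes with a window. These targets were listed with earlier results of these libraries known. They were also listed as genes that ISGF3 induces, and ISGF3 binds the ISRE. A high share of ISRE-like letters was thus built into the choice of genes.

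Targets of the other STAT factors did not pass the test in edgeR. None of 10 STAT3 targets was called, with 3 at an unadjusted p under 0.05 and 1 call (Bcl3) by DESeq2. Mcl1, a survival gene and the most abundant of them, had a log2 fold change of 0.17 (SE 0.15), and Il1rn, the IL-1 receptor antagonist, stood at 0.52 (SE 0.26). Of 5 STAT4 targets tested 0 were called, with 1 at an unadjusted p under 0.05 and 1 call by DESeq2 among the 4 that it tested (Gzmb, a granule protease of T and NK cells). Furin and Il18rap, the most abundant of these, stood at 0.55 (SE 0.26) and 0.02 (SE 0.18). None of 7 STAT5 targets was called by either tool, with 1 at an unadjusted p under 0.05. Pim1 and Bcl2l1, which promote survival below cytokine receptors, stood at 0.37 (SE 0.16) and 0.16 (SE 0.20). Of 13 STAT6 targets tested 0 were called by edgeR, with 3 at an unadjusted p under 0.05 and 1 call lower in WT (Mrc1) by DESeq2. Chil3 and Arg1, markers of macrophages exposed to IL-4, stood at -0.50 (SE 0.24) and -0.24 (SE 0.18). The median log2 fold changes of these 4 lists were 0.30, 0.70, 0.30, and -0.22, and 17.8% of all genes tested had an unadjusted p under 0.05. In the same order the sign was positive in 9 of 10, 5 of 5, 7 of 7, and 4 of 13, against 48.2% of all genes tested. Every WT library lay above every Ifnar1-/- library in 5, 1, 1, and 0 of these targets, against 11.1%. Every WT library lay below in 0, 0, 0, and 1, against 12.2%.

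Of 25 tested receptors and kinases above the STAT factors, 2 were called higher in WT and 0 lower, against 1.67% and 0.462% of all genes tested. In edgeR 11 of the 25 (44.0%) had an unadjusted p under 0.05, against 17.8% of all genes tested. The log2 fold change was positive in 22, against 48.2% of all genes tested. DESeq2 called 4 higher in WT (Csf3r, Il3ra, Il2rb, and Il7r), and it called 3.83% of the genes it tested. Il3ra, a chain of the IL-3 receptor, averaged 19.98 ± 3.527 against 9.96 ± 0.7768 normalized CPM (SD, n = 3 each, log2 fold change 1.01, SE 0.20, edgeR adjusted p = 0.0267). Il2rb, a chain of the IL-2 and IL-15 receptors of T and NK cells, averaged 12.72 ± 5.317 against 4.671 ± 0.4098 normalized CPM (log2 fold change 1.46, SE 0.32, edgeR adjusted p = 0.0478). Both calls were lost in 5 of 6 fits that left out 1 library and held without WT replicate 2, with adjusted p values of up to 0.111 for Il3ra and 0.168 for Il2rb. T cell markers were higher in mean in WT, as given above. The 6 NK cell markers summed to between 15.4 and 20.7 normalized CPM in WT and between 2.58 and 5.25 in Ifnar1-/- libraries, and most of this sum was Klrk1. Klrk1, a receptor gene of NK and T cells, was called higher in WT (15.02 ± 1.357 against 3.58 ± 1.635 normalized CPM, SD, n = 3 each, log2 fold change 2.05, SE 0.31, edgeR adjusted p = 0.0057). The other 5 markers (Ncr1, Klrb1c, Klra8, Eomes, and Prf1) did not pass the filter on low counts, reached at most 2.369 normalized CPM, and included Klra8 at 0 in every library. The part of T and NK cells in the value of Il2rb was not tested. Csf2rb, the shared chain of the GM-CSF and IL-3 receptors, had a log2 fold change of 0.24 (SE 0.20), and Il4ra stood at 0.05 (SE 0.15).

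Among 17 genes that restrain the pathway, 1 was called higher in WT, against 1.67% of all genes tested. This was Usp18, which blocks the IFNAR2 chain and is itself a target of ISGF3, with a log2 fold change of 4.09 (SE 0.25, edgeR adjusted p = 1.26e-05). The phosphatase Ptpn1 and the inhibitor Socs3 did not pass, at 0.23 (SE 0.19) and 0.20 (SE 0.14). Among 12 nuclear transport factors and coactivators 1 was called lower in WT (0.462% of all genes tested), which was the importin Kpna2 (21.14 ± 3.095 against 39.17 ± 4.525 normalized CPM, SD, n = 3 each, log2 fold change -0.89, SE 0.17, edgeR adjusted p = 0.0224). The call of Kpna2 was lost without Ifnar1-/- replicate 1, Ifnar1-/- replicate 3, WT replicate 2, or WT replicate 3 (adjusted p up to 0.114). Kpna1, the importin that carries STAT dimers of the IFN response, had a log2 fold change of -0.30 (SE 0.15), and the STAT-binding protein Nmi stood at 0.42 (SE 0.16).

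**Figure D5:**
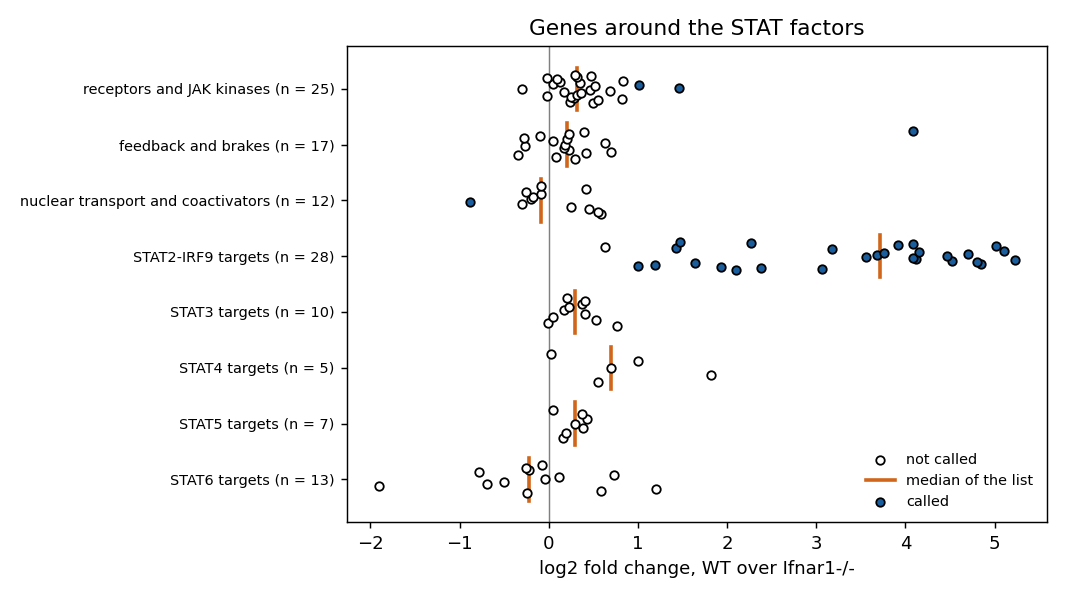
Log2 fold change of WT over Ifnar1-/- monocytes for every tested gene of 8 lists around the STAT factors, with 1 point per gene (filled where called) and a line at the median of each list. The STAT2-IRF9 targets spread from 0.63 to 5.22 with 27 of 28 called, while the medians of the other 7 lists lie between -0.22 and 0.70.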

How the data were processed

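RNA-seq of sorted CNS monocytes was re-analysed in 3 WT and 3 Ifnar1-/- libraries, grouped by the genotype label. Reads of 75 bp in pairs were mapped to GRCm38 by the authors, with STAR 2.6.0c and RSEM 1.2.31 per the submitters' processing notes. The labels name a Takara SMARTer Stranded Total RNA-Seq v2 Pico kit, while the study's methods name TruSeq Stranded Total RNA. The counting strand setting is not given in the sources used here. The deposited files hold, per gene, an expected count (estimated, not normalized), a TPM that the authors' RSEM run set to one fixed total per library, and a transcript length. RSEM divides reads that fit several genes, so values of close paralogs are estimates. Deposited FPKM values were not used.

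Expected counts were rounded and compared with edgeR 4.0.16 in R 4.3.3 (TMM, filterByExpr with a minimum count of 10, quasi-likelihood test, Benjamini-Hochberg adjustment over 11254 genes). A call needed an adjusted p of at most 0.05 and 1.5-fold, the thresholds of the study's methods, which used DESeq2. SE is the fold change divided by the square root of F. Normalized CPM were computed by edgeR from TMM-adjusted library sizes, and log2 CPM used a pseudocount of 0.5. Exact permutation tests were two-sided. The study names 3 recipient mice with marrow of both genotypes and 3 RNA samples per group, so the groups may share mice, but which library came from which mouse is not given in the sources used here. If libraries of a group are not separate mice, p-values measure only the spread between these libraries, which may be technical. No pair of libraries within a group agreed within sampling noise. Intervals and floors cover counting error or the spread between libraries only. GENCODE M21 matched 54165 of 54232 gene identifiers. Promoter windows came from RefSeq (GRCm38.p6).

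The genes, lists, and tests were chosen with earlier results of these data known. Named genes are the 7 genes, up to 4 called genes per direction and 2 of the most abundant not called genes of each list, the 5 genes most correlated with Stat2 and with Irf9, and chromosomal neighbours. Genes that DESeq2 alone called, Cd3e, and Ly6g were named after their values were seen. Alternatives were DESeq2 1.42.0, RLE normalization, other filters, limma-voom (limma 3.58.1), limma on log2 TPM, removal of gene classes, length and GC offsets, a replicate block, the main fit without the fold rule, and leaving out each library. On counts simulated for this comparison from the means of 11254 genes, of which 11065 passed the filter, edgeR found 99% of the 4-fold changes and 66.3% of the 2-fold changes, and 2.38% of its calls were false. Each simulated gene had the spread typical of its level, and libraries of a group differed otherwise only in depth. These rates therefore need not hold for the real counts. A few single genes are not reported here.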

Additional observations from a re-analysis of the deposited data

How the results depend on the processing

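Stat2 was the called gene of the 7 in all 20 alternatives, with a log2 fold change between 1.72 and 2.20 and an adjusted p between 1.05e-26 and 0.00519. The alternatives include the main fit with the fold rule dropped, which cannot change a fold change or an adjusted p. Irf9 ranged from 0.37 to 0.57 on the log2 scale, with adjusted p from 0.0322 (DESeq2) to 0.819, and was called in none. From 23 to 28 STAT2-IRF9 targets were called. The 23 came from the filter of 10 counts in every library. That filter leaves targets with fewer counts in any library untested, such as Ifi44 (0 counts in Ifnar1-/- replicate 3). The sign of Stat6 (main value 0.22) turned to -0.03 under GC and length offsets, both without and with the block (-0.0296 and -0.0323), and that of Stat4 (0.48) to -0.03 (-0.0283) in limma on log2(TPM + 0.1). The cause was not tested in either case. Stat4 has no value under the filter of 10 counts in every library. The share difference of Stat2 was 13.8 percentage points in place of 16.7 when computed from normalized CPM, which are not divided by length.

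Counts of called genes in the small lists depended on the setting. Receptors and kinases (2) gave 4 with DESeq2, 5 without a filter, 1 with limma-voom or effective length offsets, and 0 with GC and length offsets or limma on log2 TPM with either pseudocount, and 0 to 2 with a library left out. Nuclear transport (1) gave 2 without a filter, 0 with effective length offsets or limma on log2 TPM, and 0 to 1 with a library left out. Feedback genes (1) gave 2 without a filter. STAT3 targets (0) gave 1 with DESeq2, without a filter, or with GC and length offsets and the block, and 0 to 1 with a library left out. STAT4 targets (0) gave 1 with DESeq2 or without a filter and 0 to 1 with a library left out. STAT6 targets (0) gave 1 with DESeq2 or limma on log2(TPM + 1), 4 without a filter, 3 with GC and length offsets and the block, and 0 to 2 with a library left out. Without a filter 610 genes were called higher and 262 lower, with DESeq2 314 and 105, and with limma on log2(TPM + 1) 112 and 16, against 188 and 52. The causes were not tested.

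Libraries that share a replicate number deviated together weakly (correlations 0.0906, 0.0278, and 0.275), WT replicate 1 correlated most with Ifnar1-/- replicate 2 (0.0920), and no source used here ties the numbers to the 3 recipient mice, so the numbers were not taken as pairs. With the replicate block Stat2 stood at 2.02 (edgeR adjusted p = 0.00191) and Irf9 at 0.50 (adjusted p = 0.122), 182 genes were called higher and 38 lower, and STAT6 targets gave 2 calls. Depth limits Stat4 most, with 4 counts in its lowest library.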
